A study of Lathyrus oleraceus with 4 samples.

Results

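The seeds of the vegetable pea cultivar Zhewan 1 were compared between 25 and 10 days after pollination (DAP) by RNA-Seq, with 1 library at each stage. A unigene, which is a sequence assembled from the reads without a genome, entered the comparison if it had at least 50 reads in at least 1 of the 2 Zhewan 1 libraries. Of the 77269 deposited unigenes, 32849 did so (42.5%). Zhewan 1 was grown in the field, its flowers were tagged on the day they opened, and whole seeds from many plants were pooled. The study describes 10 DAP as an early stage of cell division and morphogenesis and 25 DAP as a stage of cell expansion and filling, at which vegetable peas are picked. The grain pea cultivar Zhongwan 6, from the same field and with 1 library at 10 and 1 at 25 DAP, is given alongside. For each stage and cultivar 3 biological replicates were described, but how they entered the 4 libraries is not stated, so differences between the libraries have no replicate check and no test of the stage was made. A whole seed holds the embryo, the seed coat and remains of the endosperm, and fewer cells of a type cannot be told apart from less RNA per cell in such bulk samples.

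A filling pea seed imports sucrose and amino acids from the mother plant. In its cotyledons sucrose is cleaved, hexose phosphates are carried into plastids and starch is built from ADP-glucose, while storage proteins are made from the imported nitrogen. Regulators of maturation such as FUS3, a B3 domain transcription factor first described in Arabidopsis, act during this change from dividing to storing cells, and proteins that protect the drying embryo follow late in maturation.

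The reads counted on unigenes numbered 50086351 at 10 and 55819963 at 25 DAP in Zhewan 1, and the members held 99.5% and 99.4% of them. Both totals exceed the clean reads that the study lists for these libraries, so some reads were counted on several unigenes. Levels are RPKM, counted reads scaled to unigene length and to the library's counted total. A library with no read for a unigene of 1 kb allows up to 3 reads there, an RPKM of 0.0599 at 10 and 0.0537 at 25 DAP. The median length of the members was 1419 bp, against 312 bp for the unigenes below the read minimum. Both libraries carried the members past the minimum in 24781 cases, the 25 DAP library alone in 5335 and the 10 DAP library alone in 2733. The last 2 groups lean by construction towards the library that carried them. In 1885 members the other library held 3 or fewer reads. Around the minimum the values did not step, as the 1250 members with 50 to 59 reads in the higher library had a median log2 ratio of 0.58, and the 1473 unigenes with 40 to 49 reads, just outside it, had 0.60. As a check of the tissue, FUS3 (comp26137_c0_seq1) was detected in both stages, at an RPKM of 9.47 at 10 and 211 at 25 DAP. Oleosin and caleosin annotations were also present at both stages.

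More unigenes were higher at 25 DAP than lower when the counted total of each library set the scale. A unigene was called higher or lower at a 2-fold ratio of RPKM, with 3 or fewer reads counted as 3. On this scale 12587 members were called higher at 25 DAP (38.3%) and 5240 lower (16%), so that 70.6% of the calls were higher, and the median log2 ratio was 0.63. The excess went with the scale. When the libraries were scaled by the median ratio over members, which shifts every log2 ratio by -0.62, 7665 members were higher (23.3%) and 7954 lower (24.2%), and 49.1% of the calls were higher. TMM factors gave 7712 higher (23.5%) and 7889 lower (24%), and upper quartile factors 8530 (26%) and 7215 (22%). The counted total without the 100 most abundant unigenes gave 9376 (28.5%) and 6638 (20.2%), and equal sums of RPKM gave 12278 (37.4%) and 5351 (16.3%). With these 4 scalings 49.4%, 54.2%, 58.5% and 69.6% of the calls were higher. On the counted totals the exact interval of the ratio, which covers counting error only, lay wholly past 2-fold for 9994 members upwards (30.4%) and 4361 downwards (13.3%). The sign of the ratio changed between these 6 scalings for 5994 members (18.2%). That 0 members were called higher under 1 scaling and lower under another was fixed beforehand, since the largest shift was -0.62 on the log2 scale. Under all 6 scalings 7665 members were called higher (23.3%) and 5240 lower (16%), and the group counts below use these calls unless another scale is named.

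**Figure D1:**
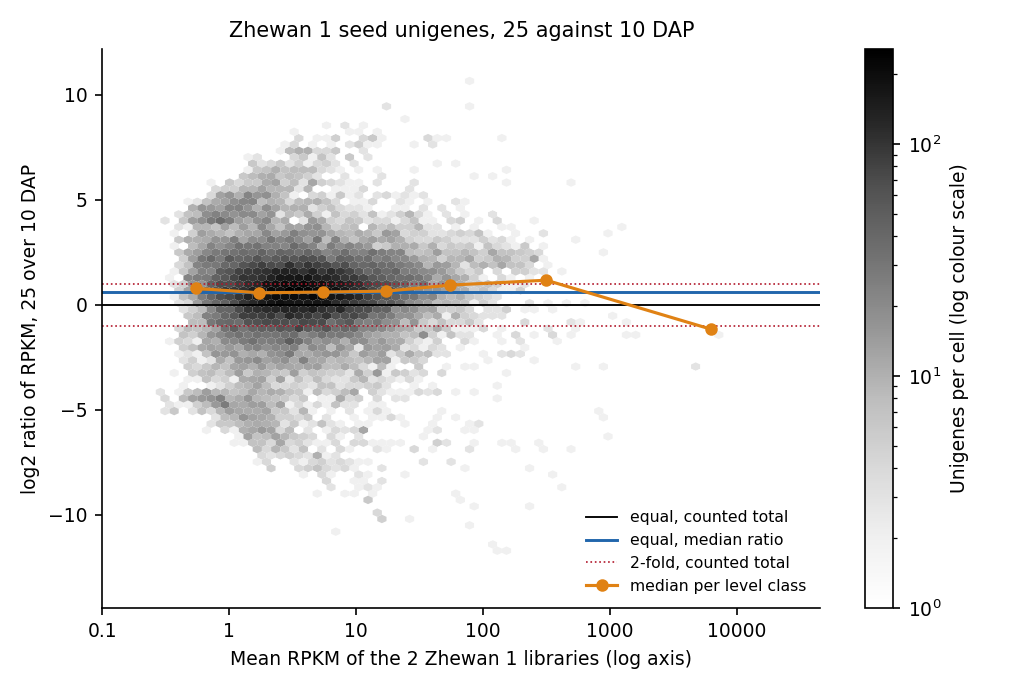
The log2 ratio of RPKM at 25 over 10 DAP in Zhewan 1 (vertical axis) is plotted against the mean RPKM of the 2 libraries (horizontal log axis) for 32849 unigenes, with darker cells holding more unigenes. The median per level class (orange) stays near the blue line of the median ratio scale up to an RPKM of 30, reaches 1.18 in the class of 100 to 1000 and is -1.16 in the class of at least 1000.

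Unigenes with a mean RPKM of at least 1000 were more often lower at 25 DAP, unlike those of the classes below. Among the 76 members with a mean RPKM of at least 1000 the median log2 ratio was -1.16 on the counted totals, with 20 higher and 40 lower at 25 DAP. In the 596 members between 100 and 1000 the median was 1.18, with 313 higher and 174 lower. The 100 most abundant unigenes of the 10 DAP library held 57.2% of its reads and 37.7% of the reads at 25 DAP, and 74 of them were lower at 25 DAP and 10 higher. The 100 most abundant of the 25 DAP library held 44.0% of its reads and 47.3% at 10 DAP, and 24 of them were lower and 55 higher. Each set leans by construction towards the library that chose it, and 49 unigenes stood in both sets. It took 51 unigenes to reach 50% of the reads at 10 and 238 at 25 DAP. In Zhongwan 6 these numbers were 85 and 63. Unigenes with an RPKM of at least 100 rose in number from 476 to 751 in Zhewan 1, and those of at least 1000 fell in number from 100 to 62. In all, 52.5 percentage points of the reads changed unigene between the stages. The 10 unigenes that lost most gave up 18.8 points, and the 10 that gained most took 17.7 points.

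**Figure D2:**
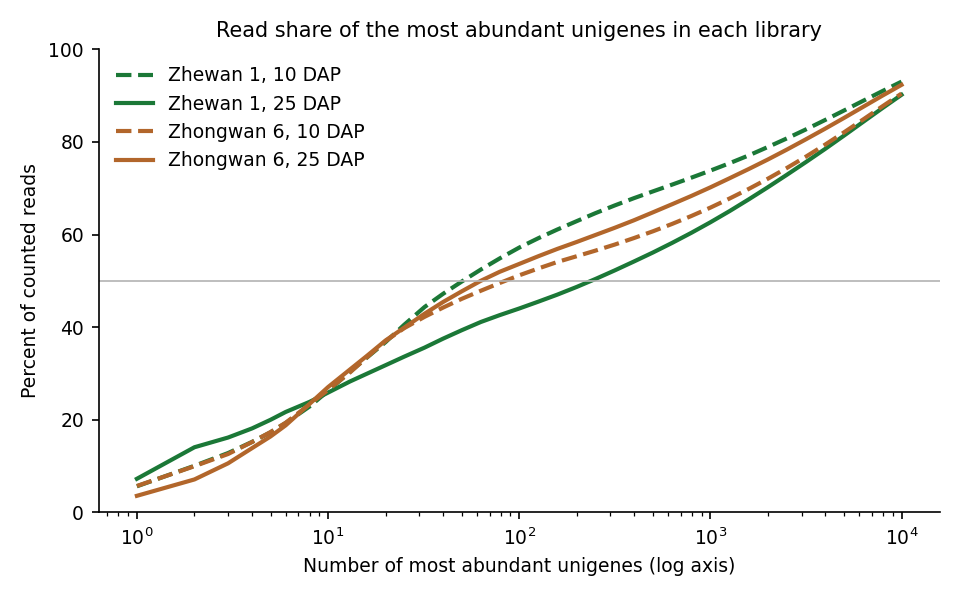
The percent of counted reads (vertical axis) held by the most abundant unigenes of each library is plotted against their number (horizontal log axis). The curve of Zhewan 1 at 25 DAP (solid green) crosses 50% at 238 unigenes and that of Zhewan 1 at 10 DAP (dashed green) at 51, while both Zhongwan 6 curves (brown) cross between them.

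Of the most abundant unigenes, 0 of the top 100 at 10 DAP and 1 of the top 100 at 25 DAP had a name in the annotation rows used here, and they are given by identifier. The unigene with the most reads at 10 DAP, comp38444_c3_seq4 (1987 bp), had an RPKM of 28411 at 10 and 8509 at 25 DAP. In Zhongwan 6 it had 21492 and 11702. The second, comp40800_c2_seq2 (1898 bp), went from 23307 to 10334, and the values in Zhongwan 6 were 30099 and 12655. Both were therefore lower at the later stage in each cultivar, although comp38444_c3_seq4 stayed within 2-fold in Zhongwan 6. The third, comp37913_c0_seq10 (2749 bp, 1 of 4 sequences of its component), went from 10011 to 1203 in Zhewan 1 but from 3837 to 7890 in Zhongwan 6. At 25 DAP the first places went to comp39373_c0_seq5 and comp39373_c0_seq3, sequences of a single component. Their RPKM was 5094 and 4318 at 10 DAP and 45822 and 38682 at 25 DAP, log2 ratios of 3.17 and 3.16 against 1.39 and 1.38 in Zhongwan 6. Both sequences may share counted reads. The third, comp39373_c1_seq3, went from 11250 to 19981, below the 2-fold call, and from 18915 to 9614 in Zhongwan 6.

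Along the route from sucrose to hexose phosphates each named unigene was higher at 25 DAP under all 6 scalings. These unigenes came from the study's expression panels, which it describes as showing differentially expressed genes. That each of them changed was therefore in part fixed by the choice, and the route as a whole was not tested. Sucrose synthase (comp38328_c0_seq2), which splits sucrose into UDP-glucose and fructose, had an RPKM of 28.3 at 10 and 654 at 25 DAP in Zhewan 1, against 26.4 and 60.9 in Zhongwan 6. The ratio in Zhewan 1 was 23.1-fold, with an exact 95% Clopper-Pearson interval of 22.4 to 23.9. By RPKM it moved from place 1694 to place 90 among all unigenes, and such ranks within a library do not depend on the scaling. UTP-glucose-1-phosphate uridylyltransferase (comp37981_c0_seq1), which makes glucose-1-phosphate from UDP-glucose, went from 20.5 to 240.0 and from place 2401 to place 306. Cytoplasmic fructose-bisphosphate aldolase (comp36369_c1_seq2), a glycolytic enzyme, went from 46.9 to 723 and from place 1027 to place 84. Phosphoglucomutase (comp37100_c1_seq1), which interconverts glucose-1-phosphate and glucose-6-phosphate, went from 14.9 to 148, a rise of 9.96-fold against 7.61-fold in Zhongwan 6. Glucose-6-phosphate isomerase (comp32440_c0_seq3), which links glucose and fructose phosphates, had the smallest rise of these unigenes, from 25.0 to 126 (5.01-fold, interval 4.81 to 5.22).

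The 4 named starch unigenes did not move by the same amount. ADP-glucose pyrophosphorylase (comp40170_c0_seq1), which makes the glucosyl donor for starch, went from an RPKM of 7.06 to 318 in Zhewan 1 and from 4.13 to 120 in Zhongwan 6. Its log2 ratio in Zhewan 1 was 5.49, or 4.87 on the median ratio scale. A second unigene of this enzyme, comp40857_c0_seq14 (650 bp), annotated as the large subunit, went from 6.51 to 24.4, with 7.61 and 50.5 in Zhongwan 6. It is 1 of 10 sequences of its component, and the summed component had a log2 ratio of 0.79 in place of 1.91. Granule-bound starch synthase 1 (comp40911_c0_seq4), which makes amylose, went from 280 to 1533 and stood at place 225 at 10 DAP and place 43 at 25 DAP. In Zhongwan 6 it went from 52.0 to 2165, so that the 10 DAP level was higher in Zhewan 1 and the 25 DAP level lower. Starch branching enzyme II (comp39207_c0_seq1), which adds the branches of amylopectin, had 26.9 at 10 and 34.1 at 25 DAP. The ratio of 1.27-fold (interval 1.22 to 1.32) was below the 2-fold call, turned to -0.29 on the log2 scale with median ratios, and its place went from 1788 to 2040. In Zhongwan 6 the same unigene went from 18.6 to 81.5 and from place 3328 to place 725.

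**Figure D3:**
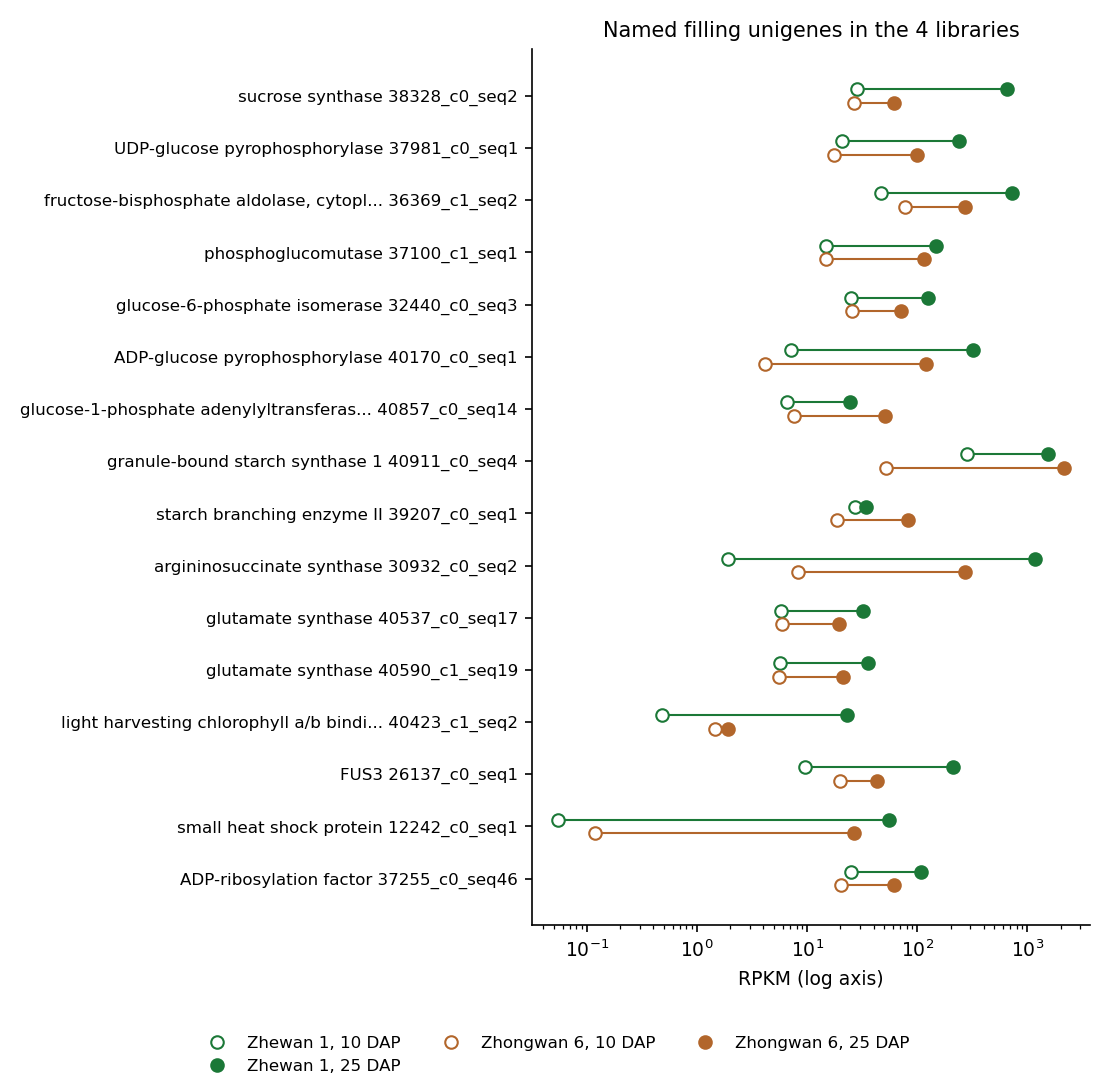
RPKM (horizontal log axis) of 16 named unigenes in the 4 libraries, with open points at 10 DAP and filled points at 25 DAP, green for Zhewan 1 and brown for Zhongwan 6. In Zhewan 1 starch branching enzyme II moved from 26.9 to 34.1, while argininosuccinate synthase moved from 1.90 to 1164.

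Other unigenes of sugar and central carbon metabolism came from the part of the study's Medicago truncatula annotation that was used here. Of its 1998 rows 1121 name a unigene of the table and 442 members have an annotation text, of which 49.3% were called higher and 12.9% lower on the counted totals, and 151 higher (34.2%) and 57 lower (12.9%) under all 6 scalings. The 442 are therefore not a random draw of the members, and the group counts below are to be read beside their shares. Among 9 members of sugar and central carbon annotation 5 were higher and 0 lower, with a median log2 ratio of 2.37 (1.75 with median ratios). Of the 9, 3 had passed the read minimum through the 25 DAP library alone, and all 3 were called higher. Among the 6 that had passed in both libraries 2 were higher, near the 34.2% of all annotated members, with a median of 1.29. ATP-citrate lyase B-1 (comp13157_c0_seq1), which supplies cytosolic acetyl-CoA, had 371 reads at 10 and 2587 at 25 DAP and went from an RPKM of 3.35 to 21.0, against 3.67 and 13.1 in Zhongwan 6. Phosphoenolpyruvate carboxylase 2 (comp12019_c0_seq2), which fixes carbon into oxaloacetate, had 12 and 209 reads. Pyruvate kinase (comp10214_c0_seq1), the last step of glycolysis, had 13 and 138 reads and went from 0.589 to 5.61. These 2 unigenes were thus present at 25 DAP but near the lower end of the measured range at 10 DAP.

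Among the named nitrogen unigenes the highest ratio was that of argininosuccinate synthase (comp30932_c0_seq2), an enzyme of arginine synthesis, arginine being a main carrier of nitrogen in pea storage protein. Its RPKM was 1.90 at 10 and 1164 at 25 DAP in Zhewan 1, against 8.23 and 272 in Zhongwan 6. It moved from place 20835 to place 52 in Zhewan 1, and its ratio was the 27th highest of the 32849. This unigene is 1 of 2 sequences of its component, and the summed component had a log2 ratio of 7.97 in place of 9.26. The glutamate synthase unigenes, which pass amide nitrogen to glutamate, moved less: comp40537_c0_seq17 went from 5.76 to 32.2 and comp40590_c1_seq19 from 5.63 to 35.3. Among 7 annotated members of amino acid, nitrogen and sulfur metabolism 3 were higher and 1 lower. Of the 3, 1 had passed the read minimum through the 25 DAP library alone. The 6 that had passed in both libraries held 2 higher and 1 lower. These counts stand near the 34.2% higher and 12.9% lower of all annotated members. Dihydrodipicolinate synthase (comp12373_c0_seq1), the entry to lysine synthesis, went from 8.45 to 65.8 (7.78-fold, interval 7.17 to 8.46) and in Zhongwan 6 from 14.1 to 33.9. Uridine-ribohydrolase 1 (comp12296_c0_seq1), which breaks down nucleosides, was lower at 25 DAP, with 8.17 and 3.61 in Zhewan 1 and 34.1 and 2.83 in Zhongwan 6.

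All 5 annotated transporter members were higher at 25 DAP under all 6 scalings, with a median log2 ratio of 2.87, and 3 of them had passed the read minimum through the 25 DAP library alone. They are not 5 separate observations, as the 3 include 2 sequences of a single tryptophan/tyrosine permease component (comp11121_c0_seq1 and comp11121_c0_seq2), and both nucleotide-sugar transporters match the same Medicago gene. The nucleotide-sugar transporters comp12959_c0_seq1 and comp12160_c0_seq1, of families that carry activated sugars across internal membranes, went from 47.6 to 241 and from 38.9 to 181. In Zhongwan 6 the same unigenes went from 45.1 to 109 and from 41.8 to 79.1. Sulfate transporter 2;1 (comp13238_c0_seq2) had 7 reads at 10 and 127 at 25 DAP in Zhewan 1, against 84 and 95 in Zhongwan 6. The level of this unigene at 10 DAP was thus lower in Zhewan 1 than in the other 3 libraries.

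Photosynthesis unigenes were among the groups with the highest ratios. Of 6 annotated members 5 were higher and 0 lower under all 6 scalings, with a median log2 ratio of 2.91. Of the 5, the 2 reaction centre protein B sequences had passed the read minimum through the 25 DAP library alone, and among the 4 members that had passed in both libraries 3 were higher. Over the 5 that also had 50 reads in a Zhongwan 6 library the median was 3.24 in Zhewan 1 and 2.73 in Zhongwan 6. With median ratios the order turned, with 2.61 and 2.94. A light harvesting unigene of photosystem II (comp13040_c0_seq1), an antenna protein, went from 19.9 to 474 (23.8-fold, interval 22.5 to 25.3) and in Zhongwan 6 from 11.1 to 87.6. A 2Fe-2S ferredoxin-like unigene (comp12767_c0_seq1) went from 4.06 to 139, and photosystem I subunit H2 (comp12625_c0_seq1) from 10.7 to 101. These proteins are encoded in the nucleus. Of the plastid-encoded annotations, reaction centre protein A of photosystem II (comp12834_c0_seq1) had 94 reads at 10 and 79 at 25 DAP, and the sequences of reaction centre protein B, comp11161_c0_seq1 and comp11284_c0_seq2, had 15 and 10 reads and then 67 each. The libraries were made from polyadenylated RNA, and plastid transcripts mostly lack such tails. A further antenna unigene, comp40423_c1_seq2, had 15 reads at 10 and 794 at 25 DAP in Zhewan 1, against 55 and 85 in Zhongwan 6. Its log2 ratio in Zhewan 1 was 5.57, and 4.23 for its component of 5 sequences.

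Ribosomal protein unigenes moved together and all 14 annotated members had passed the read minimum at both stages. Of these 12 were higher and 0 lower under all 6 scalings, with a median log2 ratio of 2.39 (1.77 with median ratios). Ribosomal S17 (comp13192_c0_seq1) went from an RPKM of 37.7 to 291, ribosomal protein S27 (comp13092_c0_seq1) from 74.2 to 403 and a ribosomal protein L6 unigene (comp12241_c0_seq1) from 91.1 to 410. In Zhongwan 6 the same unigenes went from 51.5 to 132, from 172 to 195 and from 132 to 195, and the median of the 14 was 0.39 (0.60 with median ratios). Summed over the 14 members, RPKM went from 702 to 2557 in Zhewan 1 and from 909 to 1301 in Zhongwan 6. The 2 members not called under all 6 scalings were a ribosomal protein S10p/S20e unigene (comp13378_c0_seq1), with 32.8 and 87.4, and a ribosomal protein S27a/ubiquitin unigene (comp13084_c0_seq1), which encodes a fusion of both proteins, with 263 and 245. Among 4 translation factor and tRNA synthetase members 0 were higher and 1 lower, asparaginyl-tRNA synthetase 2 (comp12976_c0_seq1), with 3.50 and 1.22.

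Among heat shock and chaperone annotations 7 of 8 members were higher and 0 lower, with a median log2 ratio of 2.39. Of the 7, 6 had passed the read minimum in both libraries. By component, with 2 sequences of chaperonin 20 counted once, 6 of 7 were higher. The small heat shock protein comp12242_c0_seq1, annotated as heat shock protein 21 of the plastid, had 3 reads at 10 and 3382 at 25 DAP in Zhewan 1, against 8 and 2064 in Zhongwan 6. The ratio in Zhewan 1 was 1012-fold, with an interval of 346 to 4908. A chaperone htpG family unigene (comp12506_c0_seq1), of the HSP90 family, went from 8.65 to 133 in Zhewan 1 and from 33.0 to 44.4 in Zhongwan 6. Chaperonin 20 (comp13366_c0_seq2), a co-chaperonin of plastids, went from 15.6 to 67.2. In respiration and proton pumps 2 of 8 members were higher under all 6 scalings, and 6 were on the counted totals, with a median of 1.46 that fell to 0.83 with median ratios. Both calls were of members that had passed the read minimum through the 25 DAP library alone, and among the other 6 there were 0. Of all annotated members 34.2% were higher. The 8 ratios lay between 0.70 and 1.87 on the log2 scale.

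Of 6 lipid members 4 were higher and 0 lower, beside 34.2% higher and 12.9% lower of all annotated members. Of the 4, 3 had passed the read minimum in both libraries. The median log2 ratio was 1.82 in Zhewan 1 and -0.07 in Zhongwan 6, or 1.20 and 0.14 with median ratios. Over the 31119 members that also had 50 reads in a Zhongwan 6 library it was 0.58 and -0.19 on the counted totals. Fatty acid desaturase 2 (comp12722_c0_seq1), which makes linoleic from oleic acid, went from 3.82 to 16.6 in Zhewan 1 and from 4.20 to 1.79 in Zhongwan 6. A fatty acid/sphingolipid desaturase (comp12174_c0_seq1) went from 7.93 to 36.1, and mitochondrial acyl carrier protein 2 (comp12517_c0_seq1) from 9.55 to 31.9. In Zhongwan 6 these went from 9.17 to 17.5 and from 11.3 to 20.4.

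**Figure D4:**
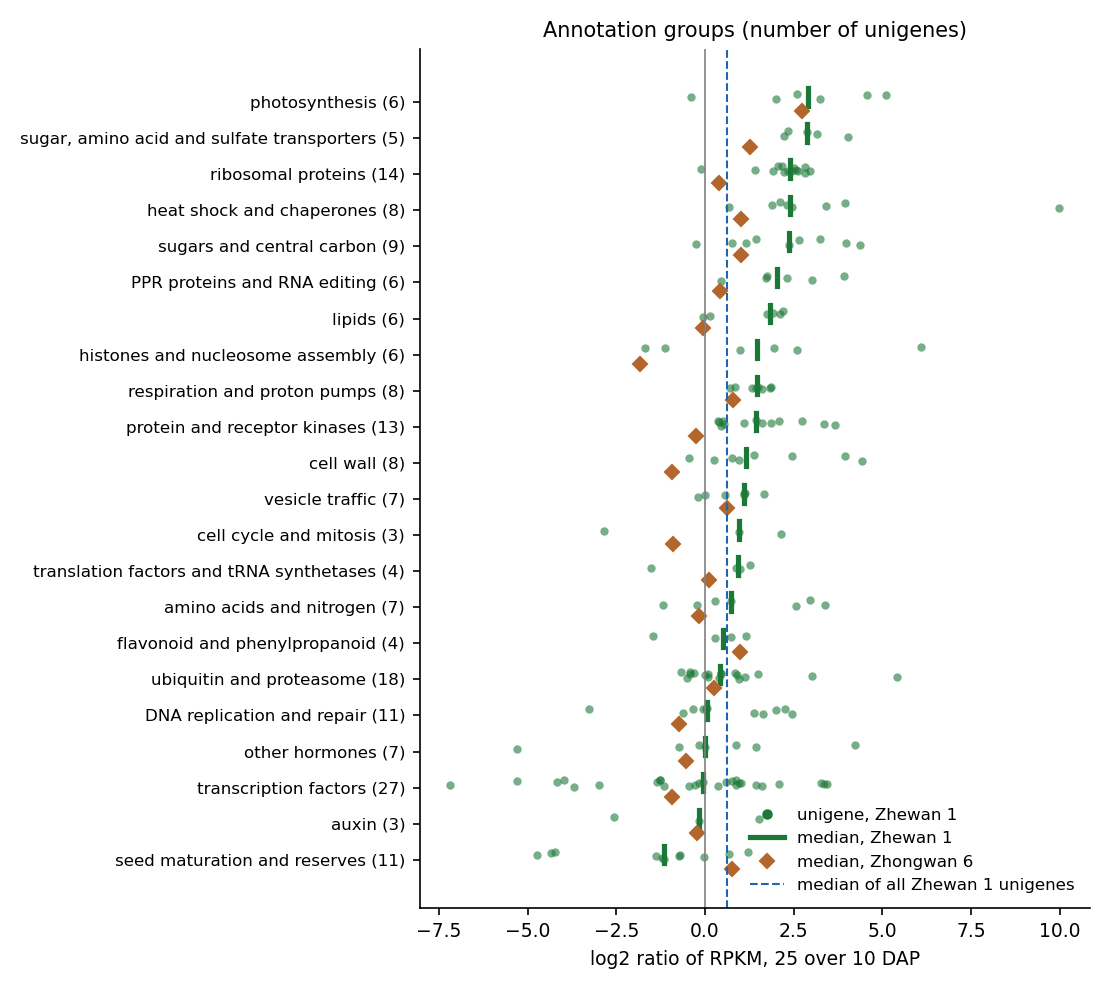
The log2 ratio of RPKM at 25 over 10 DAP (horizontal axis, counted totals) is shown for each member of the annotation groups with 3 or more members (green points), with the group median in Zhewan 1 (green bar) and in Zhongwan 6 (brown diamond) and the median of all Zhewan 1 members (dashed line, 0.63). The median of seed maturation and reserves is -1.15 in Zhewan 1 and 0.75 in Zhongwan 6, and that of ribosomal proteins is 2.39 and 0.39.

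Among the annotated seed maturation and reserve unigenes 0 of 11 members were higher at 25 DAP and 6 lower under all 6 scalings. The median log2 ratio of the group was -1.15 (-1.78 with median ratios), against 0.75 (0.96) in Zhongwan 6. Its summed RPKM was 418 at 10 and 304 at 25 DAP in Zhewan 1. No member is named as a legumin or vicilin, and nearly all of the most abundant unigenes are unnamed here. The group therefore does not stand for seed reserves as a whole. Of the 11 members 3 had passed the read minimum through the 10 DAP library alone, and among the other 8 there were 3 lower, with a median of -0.73. A unigene annotated as late embryogenesis abundant (LEA) hydroxyproline-rich glycoprotein (comp12737_c0_seq1) had an RPKM of 64.2 at 10 and 24.5 at 25 DAP in Zhewan 1. In Zhongwan 6 it had 25.5 and 89.0. Both LEA unigenes of the group were placed in it by annotation text alone, and a role in maturation was not tested. The caleosin-related unigene comp13486_c0_seq1, of a protein family on oil bodies, had 35.7 and 16, and 9.24 and 16.2 in Zhongwan 6. The oleosin comp11102_c0_seq1 (283 bp), a structural protein of oil bodies, had 14.2 and 6.08, and 22.7 and 21.9 in Zhongwan 6. The 2 sequences of a desiccation-induced annotation (comp12845_c0_seq1 and comp12845_c0_seq2), which may share reads, had log2 ratios of -0.74 and -0.72 in Zhewan 1 and 0.68 and 0.75 in Zhongwan 6. The unknown seed protein comp12618_c0_seq1 stayed level in Zhewan 1, at 168 and 165, and went from 98.2 to 324 in Zhongwan 6. The RmlC-like cupin comp13522_c0_seq1, of a superfamily that includes legume storage globulins, moved the opposite way, from 10.8 to 17.1 in Zhewan 1 and from 19.8 to 9.68 in Zhongwan 6. The second LEA unigene, comp11049_c0_seq1, went from 2.37 to 5.46 and was called higher on the counted totals.

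In 6 of these 11 members the ratio was below 1 in Zhewan 1 and above 1 in Zhongwan 6 (54.5%), 2 of the 6 being the sequences of the desiccation-induced component. The reverse held for 1, the cupin (9.09%). Over the 31119 members that also had 50 reads in a Zhongwan 6 library the first pattern was found for 2012 (6.47%) and the reverse for 9695 (31.2%). With median ratios these were 5046 (16.2%) and 4290 (13.8%), where the group had 7 and 1 of 11. Of the 6 members with the first pattern, the unknown seed protein stayed level in Zhewan 1, at 0.98-fold (interval 0.92 to 1.05). The Kunitz inhibitor given next had passed the read minimum through the 10 DAP library alone, so its fall in Zhewan 1 was favoured by construction. The 6 are therefore not 6 separate observations, and the difference between the cultivars was not tested. Protease inhibitors, which are stored in legume seeds, belong to the same group. A Kunitz inhibitor unigene (comp12822_c0_seq1) had 54 reads at 10 and 0 at 25 DAP in Zhewan 1, against 4 and 777 in Zhongwan 6. A potato inhibitor I unigene (comp10318_c0_seq1) had 71 and 0 reads, and 272 and 2 in Zhongwan 6. Its 25 DAP level was 26.4-fold lower in Zhewan 1 with 0 reads counted as 3. Lipoxygenase 1 (comp12189_c0_seq1), which oxidises linoleic acid and is abundant in legume seeds, had 253 and 15 reads, and 298 and 53 in Zhongwan 6. FUS3 was 22.3-fold higher at 25 DAP in Zhewan 1 (interval 20.7 to 23.9), unlike most of this group there, and 2.15-fold higher in Zhongwan 6.

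**Figure D5:**
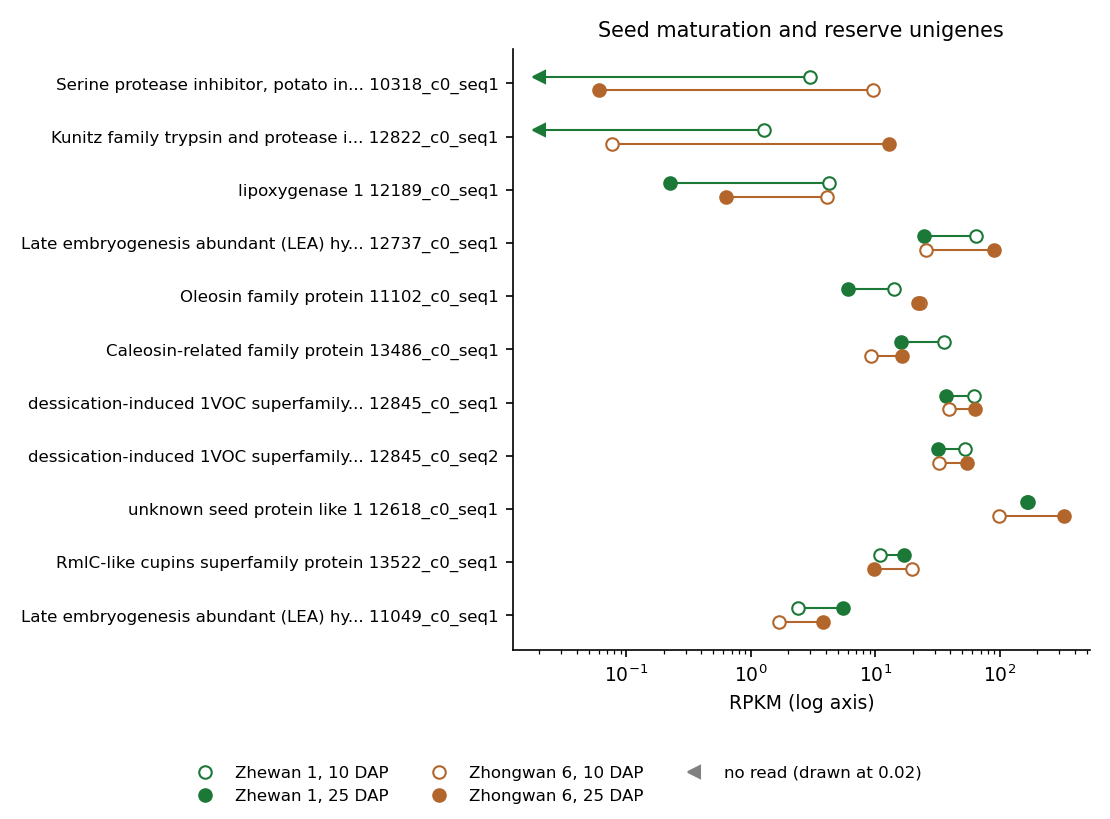
RPKM (horizontal log axis) of the 11 seed maturation and reserve unigenes in the 4 libraries, with open points at 10 DAP, filled points at 25 DAP and triangles where a library had no read, green for Zhewan 1 and brown for Zhongwan 6. In the LEA unigene comp12737_c0_seq1 the green points run from 64.2 down to 24.5 and the brown points from 25.5 up to 89.0.

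Unigenes of cell division had low levels and went in both directions. Cyclin D3;1 (comp12259_c0_seq1), which drives entry into the cell cycle, had an RPKM of 3.53 at 10 and 0.494 at 25 DAP in Zhewan 1, against 1.78 and 1.35 in Zhongwan 6. Minichromosome maintenance 10 (comp13078_c0_seq1), a replication initiation factor, had 3.83 and 0.400, and 1.07 and 0.814 in Zhongwan 6. The 3 sequences of MYB3R-5 (comp13165_c0_seq1, comp13165_c0_seq2 and comp13165_c0_seq3), of a family that controls mitotic genes in Arabidopsis, had 244, 252 and 92 reads at 10 DAP and 15, 18 and 8 at 25 DAP. They come from a single component and are not separate observations. Cyclin A3;4 (comp12883_c0_seq1) was higher at 25 DAP, with 23 and 112 reads. In the DNA replication and repair list 4 of 11 members were higher and 1 lower, with a median log2 ratio of 0.06 (-0.57 with median ratios). The share of higher members was near the 34.2% of all annotated members. Of the 11, 5 had passed the read minimum in both libraries, and among these 1 was higher and 0 lower. Minichromosome maintenance 10 had passed through the 10 DAP library alone. Of 6 histone and nucleosome assembly members 3 were higher and 2 lower, and of the 2 that had passed in both libraries 1 was higher and 1 lower. The lower ones, comp13105_c0_seq2 and comp13467_c0_seq1, had 12.9 and 7.08 at 10 DAP and 5.89 and 2.19 at 25 DAP. Histones form a family of near-identical copies, so that the assignment of reads to each of them is uncertain.

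In the cell wall list 3 of 8 members were higher and 0 lower, all 3 having passed the read minimum through the 25 DAP library alone. All annotated members had 34.2% higher and 12.9% lower. Beta-galactosidase 12 (comp13109_c0_seq2) had 0 and 72 reads, an RPKM of 1.44 at 25 DAP. Over the 5 cell wall members that also had 50 reads in a Zhongwan 6 library the median log2 ratio was 0.77 in Zhewan 1 and -0.93 in Zhongwan 6. Over the 4 such histone and nucleosome assembly members it was 0.40 and -1.82. The median over all 31119 such members already differed on this scale, with 0.58 in Zhewan 1 and -0.19 in Zhongwan 6. With median ratios the cell wall members had 0.14 and -0.72, the histone and nucleosome assembly members -0.22 and -1.61, and all members -0.04 and 0.02.

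Transcription factors had more members lower than higher, with 4 higher and 10 lower of 27. All annotated members had 34.2% higher and 12.9% lower. The median log2 ratio of the 27 was -0.05 (-0.68 with median ratios). Of the 27, 15 had passed the read minimum at both stages, and among these 0 were higher and 3 lower. By component, with sequences of MYB3R-5, homeobox protein 2 and a bZIP factor each counted once, 3 were higher and 7 lower. WRKY DNA-binding protein 24 (comp10982_c0_seq1) had 390 reads at 10 and 0 at 25 DAP in Zhewan 1, against 391 and 0 in Zhongwan 6. With 0 reads counted as 3 it was 145-fold lower at 25 DAP in Zhewan 1. Homeobox protein 2 (comp12639_c0_seq1) had an RPKM of 3.74 and 1.54, and 4.95 and 1.16 in Zhongwan 6. A bHLH unigene (comp12270_c0_seq1) had 106 and 0 reads in Zhewan 1, 39.4-fold lower with 0 counted as 3, but 64 and 137 in Zhongwan 6. The PLATZ unigene comp11320_c0_seq1, of a family of zinc-binding proteins, had the highest ratio of the list, with 5 and 60 reads. Close to it were 2 sequences of a bZIP component, comp13209_c0_seq1 and comp13209_c0_seq2, with 9 and 10 reads at 10 DAP and 96 and 114 at 25 DAP. In Zhongwan 6 they had 1 and 3 reads and then 153 and 202.

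Hormone unigenes with a known role had ratios on both sides. Of 3 auxin members 0 were higher and 1 lower, and of 7 members of other hormones 1 was higher and 1 lower. All 3 calls were of members that a single library had admitted. The shares over all annotated members were 34.2% higher and 12.9% lower. PYR1-like 6 (comp12320_c0_seq1), an abscisic acid receptor, had 141 reads at 10 and 4 at 25 DAP in Zhewan 1, against 190 and 3 in Zhongwan 6. An auxin efflux carrier (comp13193_c0_seq1) had 58 and 11 reads, and 109 and 14 in Zhongwan 6. Tryptophan aminotransferase related 2 (comp11388_c0_seq1), of an enzyme family that opens auxin synthesis, had 303 and 977 reads, and 58 and 4392 in Zhongwan 6. A gibberellin-regulated family unigene (comp12452_c0_seq1) went from an RPKM of 1.05 to 19.8, and from 1.20 to 15.8 in Zhongwan 6. Ethylene response sensor 1 (comp12609_c0_seq1) had 679 and 2059 reads. This unigene and tryptophan aminotransferase related 2 passed 2-fold on the counted totals, but their log2 ratios were 0.82 and 0.91 with median ratios. Zeaxanthin epoxidase (comp12156_c0_seq1), on the route to abscisic acid, had 407 and 827 reads, below the 2-fold call also on the counted totals.

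Annotations of other tissues in the seed were few. Of the 4 flavonoid and phenylpropanoid members, a pathway active in the seed coat, 0 were higher and 1 lower, and their summed RPKM was 22.0 at 10 and 16 at 25 DAP in Zhewan 1, with 8.93 and 8.35 in Zhongwan 6. The lower one was flavanone 3-hydroxylase (comp12893_c0_seq1, 286 bp), with 15.8 and 5.70, and 2.82 and 5.62 in Zhongwan 6. Phloem protein 2-A12 (comp13497_c0_seq1), of vascular tissue, had 6.30 and 6.06. The part of these tissues in the results above was not tested.

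Among all annotated members the 8 with the largest rises, ranked by the interval bound nearest to no change, held 2 hypoxia-responsive family unigenes. These, comp11006_c0_seq1 and comp12644_c0_seq1, had 0 reads at 10 DAP and 918 and 749 at 25 DAP in Zhewan 1, against 0 and 503 and 0 and 181 in Zhongwan 6. With 0 reads counted as 3 they were 275-fold and 224-fold higher at 25 DAP in Zhewan 1, and the lower interval bounds were 223 and 182. A thioredoxin family unigene (comp12150_c0_seq1), of small redox proteins, went from an RPKM of 17.4 to 1035 (59.5-fold, interval 55.8 to 63.6) and to place 60 in the library, and from 84.3 to 178 in Zhongwan 6. An uroporphyrinogen-III synthase unigene (comp12649_c0_seq1), of tetrapyrrole synthesis, had 4 and 511 reads, and 0 and 12 in Zhongwan 6. The other 4 were the small heat shock protein, 2 sequences of a protein of unknown function (comp12172_c0_seq1 and comp12172_c0_seq2) and a histone unigene (comp13083_c0_seq1, 241 bp) with 0 and 227 reads.

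The 8 annotated members with the largest falls were led by a reticulon-like unigene, comp13530_c0_seq2 (904 bp), of a protein family that shapes the endoplasmic reticulum. Its RPKM was 551 at 10 and 1.72 at 25 DAP in Zhewan 1, against 43.2 and 251 in Zhongwan 6. It was thus 320-fold lower at 25 DAP in Zhewan 1 but 5.81-fold higher in Zhongwan 6. An NAD(P)-binding Rossmann-fold unigene (comp13041_c0_seq1) had 99.4 and 2.83, and 19.7 and 43.4 in Zhongwan 6. A UDP-glycosyltransferase unigene (comp13091_c0_seq1) had 17 and 0.526, and 3.85 and 23.4 in Zhongwan 6. A stress induced protein unigene (comp13441_c0_seq1) had 457 and 8.21, and was lower in Zhongwan 6 too, with 239 and 111. The DUF300 unigene comp12777_c0_seq1 had 37.8 and 0.737, and 16.6 and 22.5 in Zhongwan 6. In each of these 5 unigenes the highest or second highest of the 4 levels was that of Zhewan 1 at 10 DAP and the lowest that of Zhewan 1 at 25 DAP. The other 3 were the WRKY, bHLH and potato inhibitor I unigenes given above.

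Without regard to annotation, and with 10 RPKM or more in the higher library, the largest rises by the same interval bound belonged to comp39317_c1_seq2, comp24945_c0_seq2 and comp25865_c0_seq1. Their reads were 0, 0 and 4 at 10 DAP and 3787, 2976 and 7969 at 25 DAP in Zhewan 1. In Zhongwan 6 they were 12, 14 and 9 at 10 DAP and 674, 218 and 34 at 25 DAP. The log2 ratio of comp39317_c1_seq2, 10.15 with its 0 reads counted as 3, was 2.75 for the summed reads of its component of 2 sequences. The ratio of comp25865_c0_seq1 was 1788-fold (interval 698 to 6562) in Zhewan 1 and 3.24-fold in Zhongwan 6. Among the largest falls, comp36631_c1_seq6 had an RPKM of 3285 at 10 DAP, place 39 of the library, and 0.651 at 25 DAP, while in Zhongwan 6 it had 680 and 641. Its log2 ratio was -12.30, and -9.27 for its component of 6 sequences. The unigene comp25725_c0_seq2 had 1727, place 66, and 0.357, and in Zhongwan 6 73.2 and 274. The largest fall in Zhewan 1 was that of comp40057_c0_seq3, from 34164 reads to 4, against 4647 and 837 in Zhongwan 6. Falls exceeded rises at the extremes. An 8-fold or larger ratio was reached by 2842 members upwards and 2141 downwards, a 32-fold ratio by 895 and 988, and a 256-fold ratio by 78 and 135. Where both libraries had 50 reads, the 256-fold counts were 1 and 8.

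Sequences assembled into a single Trinity component come from overlapping reads and may be variants of a gene. Reads that fit several of them may have been counted on each. Of 5370 components with 2 or more members 161 (3.0%) held sequences called in both directions under all 6 scalings, 1006 held 2 or more higher and 0 lower, and 741 held 2 or more lower and 0 higher. In the component comp39716_c0, comp39716_c0_seq3 (314 bp) went from 25 to 1012 reads and comp39716_c0_seq10 (1360 bp) from 51073 to 22008. In comp40650_c1, whose reads numbered 6062 at 10 and 107521 at 25 DAP, comp40650_c1_seq31 went from 37 to 10721 reads while comp40650_c1_seq13 went from 1586 to 512. In comp40632_c0, comp40632_c0_seq91 went from 409 to 1415 reads and comp40632_c0_seq117 from 853 to 0. Members alone in their component had a median log2 ratio of 0.76, and those in components of 10 or more sequences 0.46. By length the median was 1.05 under 300 bp and 0.57 between 1000 and 2000 bp.

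In the remaining groups most members stayed within 2-fold or were low. Of 18 ubiquitin and proteasome members 2 were higher and 0 lower, with a median log2 ratio of 0.42, below that of all members, and both calls were of members that the 25 DAP library alone had admitted. Of 7 vesicle traffic members 1 was higher, the RAB GTPase A4A (comp12179_c0_seq1), with an RPKM of 3.12 and 9.94, which had 47 reads at 10 DAP and so had passed through the 25 DAP library alone. The ADP-ribosylation factor comp37255_c0_seq46, also of vesicle traffic, went from 24.8 to 108, but its component of 19 sequences had a summed log2 ratio of 0.93. Among 13 kinases 5 were higher and 0 lower, beside 34.2% higher and 12.9% lower of all annotated members. Of the 5, 4 had passed through the 25 DAP library alone, and of the 8 kinases that had passed in both 1 was higher. The 4 include crinkly4 (comp11520_c0_seq1), a receptor kinase of the epidermis and aleurone first described in maize, with 31 and 146 reads. Pentatricopeptide repeat proteins, which act on organelle RNA, had 5 of 6 members higher, and by component 4 of 5. Of the 6 members, 3 had passed the minimum through the 25 DAP library alone. Among the other 3, 2 were higher, both of them sequences of a single component (comp12222_c0_seq1 and comp12222_c0_seq2). The 1 disease resistance member (comp11275_c0_seq1) had 1 read at 10 and 72 at 25 DAP, a ratio with an interval of 11.2 to 2587.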

How the data were processed

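RNA was extracted from field-grown seeds, poly(A) RNA was selected with oligo(dT) beads and 1 library for each cultivar and stage was sequenced on an Illumina HiSeq 2000. The authors assembled the clean reads with Trinity, mapped them to the unigenes with Bowtie 0.12.8 and deposited the read counts on each unigene. The deposited RPKM values are these counts scaled to unigene length and to all reads counted in that library, and recomputed values differed from them by at most 0.00457. No genome was used. Unigene length, the other value of the deposited table, is in bp.

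Ratios were taken from the deposited counts on the counted totals, with 3 or fewer reads counted as 3. The median ratio, TMM and upper quartile factors (edgeR 4.0.16), equal sums of RPKM and the total without the 100 most abundant unigenes were the other scalings. Intervals are exact Clopper-Pearson at 95% and cover counting error only. They treat each count as a separate read, although some reads were counted on several unigenes. With 1 library at each stage no p-value for the stage exists. The scripts were tested on simulated data.

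Members, annotation lists and the rule for named genes were chosen with earlier results of these data known. Named are 16 unigenes with names in the study's expression panels, up to 3 members of each list in each direction by RPKM among those called under all 6 scalings, the 8 largest rises and falls among annotated members and 3 each way among all members with an RPKM of at least 10, the 3 most abundant unigenes of each library and 3 components with calls in both directions. Other list members, and cell type annotations, were named after their values were seen. Annotations came from the study's Medicago truncatula matches, of which 1998 rows were used, so no enrichment was tested. Per-sample columns of other samples numbered 0. Other minimums of 20, 100 and 200 reads, 50 reads in both libraries or none, a 4-fold threshold, a log2(RPKM + 1) scale, Fisher's exact test between the 2 libraries at an FDR of 0.001, which covers counting error and not the stage, and component sums were tried.

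Python 3.11.15 with NumPy 2.4.6, SciPy 1.17.1, pandas 2.3.3 and matplotlib 3.10.9, and R 4.3.3, were used.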

Additional observations from a re-analysis of the deposited data

Results flagged for a closer look

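In 9 of the 232 named unigenes and list members a 2-fold change in Zhewan 1 met a 2-fold change in the opposite direction in Zhongwan 6, under all 6 scalings in each cultivar. On the counted totals there were 14. With 1 library at each stage of a cultivar the difference was not tested, and no share over all members was taken. Of the 9, the reticulon-like, Rossmann-fold, UDP-glycosyltransferase and comp25725_c0_seq2 unigenes had been named for their large falls in Zhewan 1. A single Zhewan 1 library had admitted the UDP-glycosyltransferase, Kunitz inhibitor, comp25725_c0_seq2, APS reductase 1 and beta-D-xylosidase 4 unigenes, which favours their direction there by construction. Lower in Zhewan 1 and higher in Zhongwan 6 were the LEA unigene comp12737_c0_seq1 (log2 ratio -1.39 and 1.80), the reticulon-like comp13530_c0_seq2 (-8.32 and 2.54), the Rossmann-fold comp13041_c0_seq1 (-5.13 and 1.14), the UDP-glycosyltransferase comp13091_c0_seq1 (-5.02 and 2.61), the Kunitz inhibitor comp12822_c0_seq1 (-4.33 and 7.38), comp25725_c0_seq2 (-12.24 and 1.91) and comp37913_c0_seq10 (-3.06 and 1.04). Higher in Zhewan 1 and lower in Zhongwan 6 were APS reductase 1 (comp11926_c0_seq1, 3.39 and -1.29), with 7 and 82 reads in Zhewan 1 against 40 and 19 in Zhongwan 6, and beta-D-xylosidase 4 (comp12268_c0_seq1, 2.45 and -1.98), with 11 and 67 reads and 27 and 8.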

How the results depend on the processing

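On the counted totals 12587 members were higher at 25 DAP and 5240 lower. These counts became 7665 and 7954 with median ratios and 7712 and 7889 with TMM factors. With 50 reads asked of both libraries they were 8022 and 2733, with no minimum 22245 and 10362, with a 4-fold threshold 5666 and 3160, and with reads summed over components 8026 and 3081. With a minimum of 200 reads the lower count was 3336. Upper quartile factors, equal sums of RPKM, the total without the 100 most abundant unigenes, minimums of 20 and of 100 reads, the interval past 2-fold, log2(RPKM + 1) and Fisher's exact test between the libraries, which covers counting error only (12465 and 5208), left both counts within 1.5 times. Part of this is by construction, since minimums and component sums change the number of unigenes compared. For the 102 named unigenes 0 of 714 values under other settings reversed a call. Of these values, 385 lay outside the counting interval of the ratio on the counted totals. For the 22 lists of 3 or more members 0 of 154 medians reversed a call. The scalings could not reverse a 2-fold call, since their largest shift was -0.62 on the log2 scale. Most of the unigenes were also named because they had passed the call under every scaling or had the largest ratios. The absence of reversals therefore says little about how stable the calls are. The median of respiration and proton pumps fell from 1.46 to 0.83 with median ratios, and that of transporters to 1.80 with log2(RPKM + 1).

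No paired analysis was possible because each group has 1 library, and leaving out a replicate was not run for the same reason. Counting error is small against the ratios named, except where the lower library had fewer than about 10 reads. The spread between seed batches is unknown. Reads shared among sequences of a component, and the 1998 annotation rows used, limit what single unigenes and lists can show.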
